A study of Mus musculus with 119 samples.

Results

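The comparison is between bone marrow–derived macrophages (BMDMs) given the RSK inhibitor RSKi47 and untreated BMDMs, both at 1 h of LPS. It uses 10 of the 119 RNA-seq libraries of the series, chosen by their labels: 4 of RSKi47-treated cells (replicates 1 to 4) and 6 of untreated cells (replicates 4 to 9). All 10 came from wild-type (WT) C57BL/6(NIMR) mice. BMDMs are macrophages grown for a week from bone marrow cells with L-cell conditioned medium. RSKi47 was given at 2 µM for 10 min, then LPS, a bacterial lipopolysaccharide that signals through TLR4, at 100 ng/ml for 1 h. Untreated cells received the same LPS and no inhibitor. The untreated libraries are those of the series' TPL-2 experiment, and the RSKi47 libraries are a separate experiment of the same series. No library of cells left without the inhibitor, or given its solvent, was used from that second experiment. The inhibitor and the experiment therefore cannot be told apart at any single time, and differences between cells not given LPS are reported beside the main results for that reason. A further control, 3 libraries of cells given DMSO for 10 min without LPS, belongs to yet another experiment, that of the inhibitor PD0325901, so it is not the solvent control of RSKi47 and its differences cannot be told apart from that experiment.

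RSKs, the ribosomal S6 kinases, are activated by ERK1/2 at the end of the cascade from TPL-2 through MKK1/2. Once active they phosphorylate transcription factors, translation factors and other kinases, and part of the ERK1/2 signal to genes passes through them. In macrophages, LPS turns this cascade on within minutes, together with the NF-κB pathway, and both act on genes of cytokines and chemokines.

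Expression values were on a log2 scale, so a difference of 1 is a 2-fold change. Genes are called changed where the adjusted p was under 0.05 and the difference 2-fold or more. Of the 18098 genes, 11971 passed a filter on low values and were tested. Sequencing depth is unknown, and the spread between libraries sets the precision. Replicate numbers name separate libraries, and nothing in the labels says that they are separate mice, so the p values measure the spread between libraries. That spread was estimated over all groups of the series at once. With the compared libraries alone, adjusted p values were larger, for *Ccl2* 1.28e-05 in place of 1.23e-21. *Il10* (adjusted p = 0.0591) and *Il12b* (adjusted p = 0.0756) then did not pass, and 67 genes were lower and 116 higher at 1 h. Untreated replicates 4 to 6 and 7 to 9 formed 2 sets: library pairs within a set differed by a root mean square of 0.16 to 0.26 over genes (0.26 for replicates 8 and 9, at most 0.19 for the others) and pairs between sets by 0.23 to 0.28, and 34 genes (0.284%) differed at least 2-fold between the sets. RSKi47 replicate 4 stood apart from replicates 1 to 3, by 0.24 to 0.26 against 0.16 to 0.19. The defining macrophage markers were high in every library, *Csf1r* at 15.09 to 15.51 and *Adgre1* (F4/80) at 14.58 to 15.30, and none of the 20 macrophage identity markers was changed, where 1.55% of all genes were. By adjusted p alone 8 of the 20 were lower, among them *Cd163* (-0.92), *Mrc1* (-0.78) and *Cd14* (-0.61), and 5 were higher, among them *Marco* (0.93). Of all genes, 26.3% were lower and 26.5% higher by that limit.

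At 1 h of LPS, 186 genes (1.55% of those tested) differed between RSKi47-treated and untreated cells. RSKi47-treated cells had 69 genes lower (0.576%) and 117 higher (0.977%). The genes lower included 6 of the cytokine and 5 of the chemokine list, among them *Csf2*, *Il23a* and *Cxcl3*, and genes that were also lower without LPS, such as *Ndufs5* (-2.53) and *Cbr2* (-1.83). Most of the genes higher were higher without LPS by about as much. The adjusted p alone passed for 6317 genes (52.8%), 3143 lower and 3174 higher, so the 2-fold limit sets these counts. Of the 186 changed genes, 166 had libraries that did not overlap between the groups, 63 lower and 103 higher. Over all genes tested, 32.6% did not overlap, 16.2% being lower and 16.3% higher. All 186 kept their direction against either set of untreated libraries, and 58 lower and 85 higher genes were still changed against replicates 4 to 6 alone, as were 53 and 115 against replicates 7 to 9 alone. Without RSKi47 replicate 4, 56 and 99 were.

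Without LPS, after 10 min of the inhibitor, 161 genes (1.34%) already differed from untreated cells, 42 lower (0.351%) and 119 higher (0.994%). The 117 genes higher at 1 h had a median difference of 1.28 at 1 h and 1.24 without LPS. For the 69 lower genes the medians were -1.32 and -0.91. The difference of differences, that is the change from no LPS to 1 h in RSKi47-treated cells minus that in untreated cells, was therefore tested by itself. A difference that is the same with and without LPS cancels in it, while a difference between the experiments in how cells met LPS does not. The treated cells at 1 h of LPS had also had the inhibitor for 1 h longer than those without LPS, and this cannot be told apart from an effect on the response. This response differed for 45 genes (0.376%), with the signed change lower in RSKi47-treated cells for 43 (0.359%) and higher for 2 (0.0167%). These 2, *Fbxo32* and *Arrdc3*, were lowered by LPS in untreated cells (-1.30 and -2.59) and less so with the inhibitor (-0.25 and -1.23), and *Fbxo32* fell under the 2-fold limit in 6 alternatives. Against untreated replicates 4 to 6 alone the response was lower for 71 genes and higher for 7, and against replicates 7 to 9 alone it was lower for 22. Of the 69 genes lower at 1 h, 26 were among the 43, against 1 of the 117 higher genes among the 2. Both comparisons hold the same 1 h difference, so part of this overlap is built in. In untreated cells LPS at least doubled 380 genes (3.17%), among them 35 of the 69 lower genes, 8 of the 117 higher genes and 40 of the 43. The median response of the 43 was 2.93 in untreated and 1.66 in RSKi47-treated cells, a direction fixed by how the 43 were selected. In RSKi47-treated cells, 28 of the 43 were still induced at least 2-fold.

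**Figure D1:**
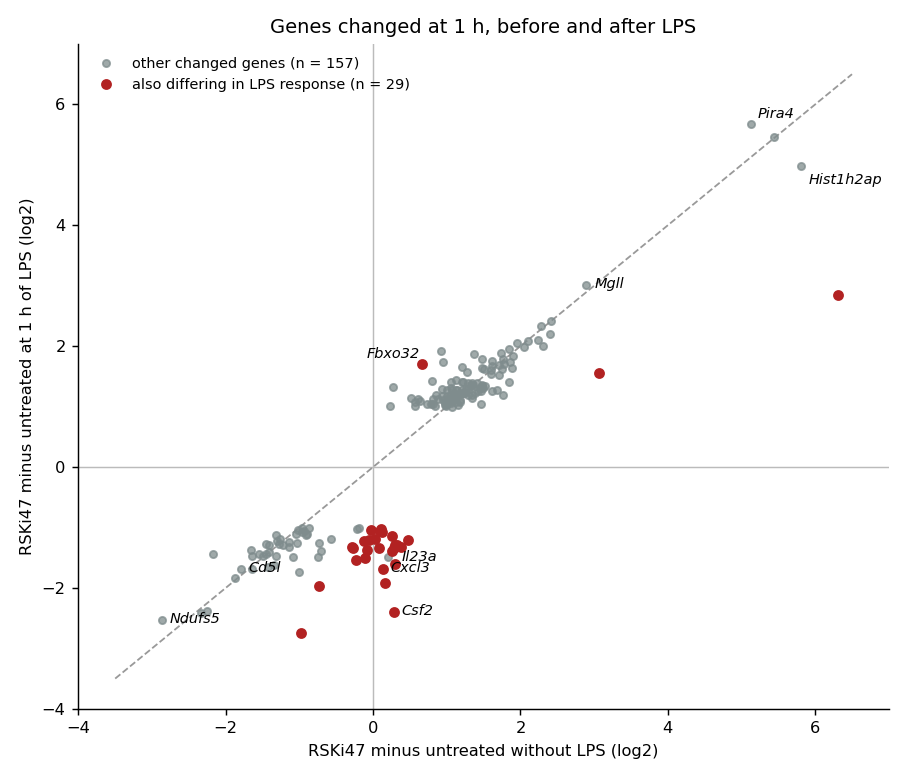
Difference between RSKi47-treated and untreated cells at 1 h of LPS (vertical) against that without LPS (horizontal), both log2, for the 186 genes changed at 1 h; the dashed line marks equal differences. Genes whose LPS response also differed (red) include *Csf2*, *Cxcl3* and *Il23a*, which lie near 0 without LPS, whereas most higher genes lie along the dashed line.

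Among cytokines, 6 of 25 tested genes were lower and 2 higher at 1 h (median -0.39, against 0.00 over all genes). *Csf2* (chromosome 11, 54247270 to 54249899, GRCm38), which encodes GM-CSF, a growth factor of myeloid cells, had the largest fall of them. Its values were 6.35, 6.23, 6.32 and 6.25 in RSKi47 replicates 1 to 4, and in untreated libraries ran from 8.03 through a median of 8.75 to 9.31. All 4 treated libraries lay below all 6 untreated ones. The difference was -2.41 (SE 0.18, adjusted p = 2.19e-21; exact permutation test, two-sided, p = 0.00476, the smallest that 4 against 6 libraries allow). Without LPS the gene was low in both groups, at 3.59 ± 0.04 (SD, n = 4) and 3.30 ± 0.09 (SD, n = 6), and its response to LPS was 2.69 smaller with the inhibitor (adjusted p = 3.62e-14). Against untreated replicates 7 to 9 alone the difference was -1.88.

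*Il23a* (chromosome 10, 128296140 to 128298084), the p19 subunit of IL-23, which sustains Th17 cells, was 6.27, 6.31, 6.22 and 6.88 in treated libraries and 7.01 to 9.11 (median 8.02) in untreated ones. The groups did not overlap, but replicate 4 of the treated cells came close to the lowest untreated library. The gene was lower by 1.61 on the log2 scale (SE 0.18, adjusted p = 2.05e-12; exact permutation p = 0.0143), and by 0.86, under the 2-fold limit, against untreated replicates 7 to 9 alone. *Lif* (chromosome 11, 4257568 to 4272514), a cytokine that signals through gp130, was 6.68, 6.07, 5.69 and 5.99 against 7.05 to 7.92 (median 7.35), a difference of -1.29 (SE 0.14, adjusted p = 6.64e-14) with no overlap. *Il1b* (chromosome 2, 129364569 to 129371164), the fever-inducing cytokine IL-1β, was lower by 1.18 (SE 0.15, adjusted p = 1.65e-10), and by 0.90, under 2-fold, against untreated replicates 7 to 9 alone. Replicate 1, at 14.51, lay just above the lowest untreated library at 14.49, while replicates 2 to 4 were at 13.51 to 13.71. Its response to LPS was 4.94 with the inhibitor and 6.15 without, and the difference passed the test (adjusted p = 2.91e-05).

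*Il12b*, the p40 subunit shared by IL-12 and IL-23, was 7.59, 8.99, 9.10 and 8.75 in treated libraries and 8.78 to 10.97 in untreated ones, so the groups overlapped. Its difference was -1.29 (adjusted p = 4.29e-06; exact permutation p = 0.0857). Against untreated replicates 7 to 9 alone it was -0.30 (adjusted p = 0.259), and against replicates 4 to 6 alone -2.28. Without LPS it differed by 0.33, and its response was 1.62 smaller (adjusted p = 0.000577), or 0.65 smaller against replicates 7 to 9 alone (adjusted p = 0.527). *Il10*, an anti-inflammatory cytokine, was 10.56 in RSKi47 replicate 1, above every untreated library (9.46 to 10.18), and 7.16 to 8.06 in replicates 2 to 4. Its difference was -1.33 (adjusted p = 1.86e-07; exact permutation p = 0.0571), or -2.04 without RSKi47 replicate 1 and -0.90 without replicate 4, after one of -0.28 without LPS. *Clcf1* and *Ifnb1* were the 2 cytokine genes higher. *Clcf1*, a gp130 ligand, was 2.14-fold higher at 1 h, and higher by 0.99 on the log2 scale without LPS. Its 1 h difference was 0.87 without RSKi47 replicate 4 and 0.86 against untreated replicates 4 to 6 alone, both under 2-fold. *Ifnb1*, which encodes IFN-β, was 8.92, 9.85, 10.03 and 8.31 against 7.51 to 8.40 in untreated cells, a difference of 1.32 (SE 0.28, adjusted p = 3.1e-05) with replicate 4 inside the untreated range. Its difference without LPS was 0.27, and its response did not pass the test (adjusted p = 0.1). Of the members not changed, *Csf1* was lower by 0.89 and *Il1a* by 0.69.

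**Figure D2:**
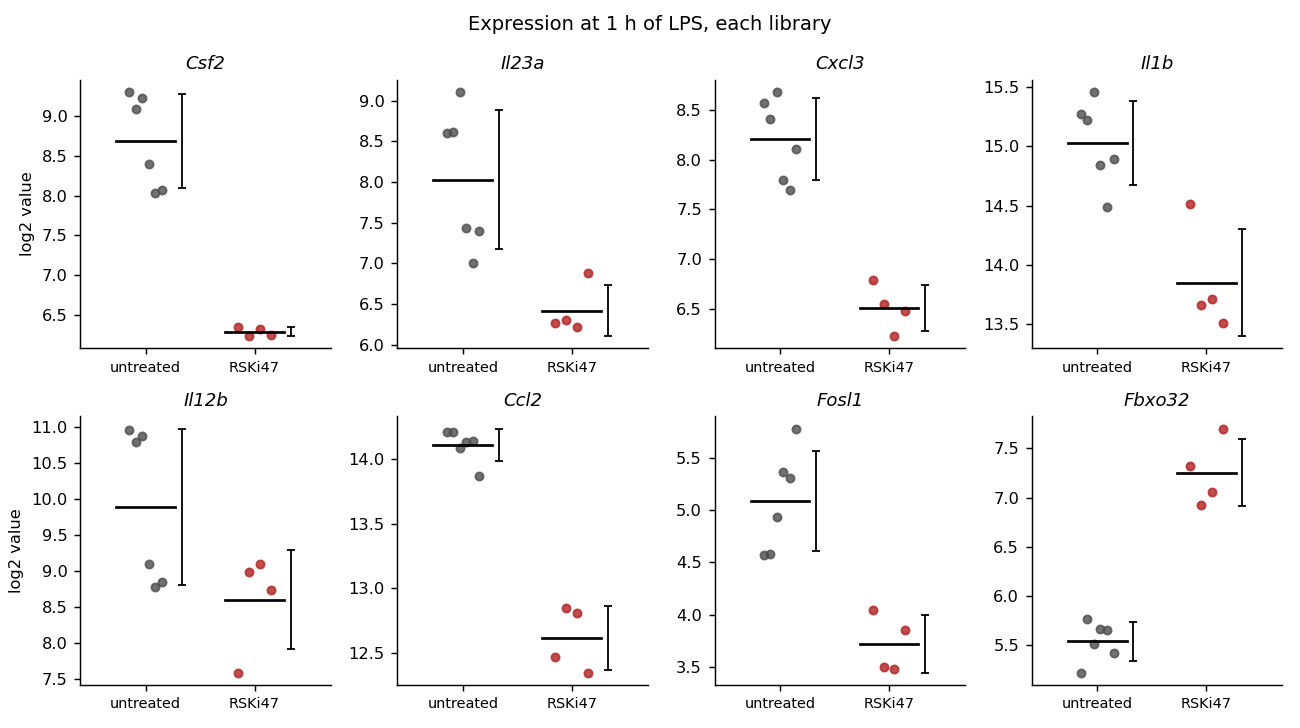
Log2 values at 1 h of LPS in each untreated (grey, n = 6) and RSKi47-treated (red, n = 4) library; horizontal lines are means and error bars the SD. The groups are apart for *Csf2*, *Il23a*, *Cxcl3*, *Ccl2*, *Fosl1* and *Fbxo32*, meet for *Il1b* and overlap for *Il12b*, whose untreated libraries fall into 2 sets.

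Chemokines had 5 of 20 tested genes lower and none higher (median -0.47). For *Cxcl3*, *Ccl22* and *Ccl12* the LPS response differed, and *Ccl2* was also lower without LPS. For *Ccl7* both held, with the difference in response under 2-fold. *Cxcl3* (chromosome 5, 90786101 to 90788093), which attracts neutrophils through CXCR2, was 6.80, 6.55, 6.23 and 6.49 in treated and 7.69 to 8.68 (median 8.26) in untreated libraries. It was lower by 1.69 (SE 0.14, adjusted p = 1.32e-18) with no overlap, differed by 0.13 without LPS, and had a response 1.82 smaller (adjusted p = 2.92e-11). *Ccl22*, a ligand of CCR4, was lower by 1.20 (0.92 against untreated replicates 7 to 9 alone) and *Ccl12*, a monocyte chemoattractant, by 1.54, with responses 1.68 and 1.31 smaller. *Ccl2* (chromosome 11, 82035577 to 82037452), the main attractant of monocytes, was 12.47, 12.85, 12.81 and 12.35 against 13.87 to 14.21 (median 14.13). That difference, -1.49 (SE 0.11, adjusted p = 1.23e-21), stood beside one of -1.09 without LPS, and the response of *Ccl2* did not pass the test (difference -0.40, adjusted p = 0.127). *Ccl7*, its neighbour, was lower by 1.74 at 1 h and by 1.01 without LPS, and its response was 0.73 smaller (adjusted p = 0.00562).

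Promoter sequences are shown for the 5 cytokine and chemokine genes with the largest fall in LPS response among those with an entry in the RefSeq promoter table (GRCm38.p6). Each runs 5′ to 3′ on the gene's strand from 250 bases before to 50 after its start, and capitals mark a match on either strand to any of 5 motifs: AP-1 (TGANTCA), CRE (TGACGTCA), NF-κB (GGGNNTTTC), C/EBP (TTGCNNAA) and ETS (CCGGAAG). Positions are chr11:54249850-54250149 (minus strand) for *Csf2*, chr5:90785851-90786150 for *Cxcl3*, chr8:94745434-94745733 for *Ccl22*, chr11:44399813-44400112 for *Il12b* and chr11:4257318-4257617 for *Lif*, the last 4 on the plus strand.
Csf2: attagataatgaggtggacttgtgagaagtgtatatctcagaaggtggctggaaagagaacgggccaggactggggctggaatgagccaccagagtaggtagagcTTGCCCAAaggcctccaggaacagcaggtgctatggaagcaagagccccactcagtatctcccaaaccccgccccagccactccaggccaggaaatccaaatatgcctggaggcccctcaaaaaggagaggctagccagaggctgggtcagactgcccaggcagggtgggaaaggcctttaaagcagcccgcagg
Cxcl3: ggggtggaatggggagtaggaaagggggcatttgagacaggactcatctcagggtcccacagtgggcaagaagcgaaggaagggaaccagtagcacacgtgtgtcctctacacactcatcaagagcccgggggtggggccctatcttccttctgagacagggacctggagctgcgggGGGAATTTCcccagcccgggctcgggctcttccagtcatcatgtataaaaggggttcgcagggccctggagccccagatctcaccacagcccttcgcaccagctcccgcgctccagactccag
Ccl22: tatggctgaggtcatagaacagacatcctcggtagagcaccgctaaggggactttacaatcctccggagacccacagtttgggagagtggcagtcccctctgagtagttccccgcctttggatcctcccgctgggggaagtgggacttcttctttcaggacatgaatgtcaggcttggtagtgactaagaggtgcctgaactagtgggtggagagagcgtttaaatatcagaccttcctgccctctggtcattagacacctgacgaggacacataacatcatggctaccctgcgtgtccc
Il12b: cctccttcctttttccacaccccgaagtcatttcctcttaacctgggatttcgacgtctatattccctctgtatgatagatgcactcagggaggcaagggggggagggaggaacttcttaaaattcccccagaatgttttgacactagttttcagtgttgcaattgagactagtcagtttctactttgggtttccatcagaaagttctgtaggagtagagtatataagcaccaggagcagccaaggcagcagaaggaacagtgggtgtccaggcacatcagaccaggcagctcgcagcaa
Lif: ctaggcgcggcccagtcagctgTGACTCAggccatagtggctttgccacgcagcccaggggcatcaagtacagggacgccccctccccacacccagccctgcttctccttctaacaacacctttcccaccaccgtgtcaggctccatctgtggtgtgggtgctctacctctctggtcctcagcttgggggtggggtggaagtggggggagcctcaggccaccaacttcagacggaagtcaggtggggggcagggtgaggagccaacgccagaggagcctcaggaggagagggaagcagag

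In these windows *Csf2* held a C/EBP match, *Cxcl3* an NF-κB match and *Lif* an AP-1 match, while *Ccl22* and *Il12b* held none of the 5. Of the 43 genes with a lower response, 31 had an entry in the table. The AP-1 letters were in 8 of them (25.8%), against 4.97% of the 9215 tested genes with an entry and 7.92% of all 27025 promoters. NF-κB letters were in 3 (9.68%, against 4.51% of tested genes), C/EBP letters in 2 (6.45%, against 8.32%), CRE letters in 1 (3.23%, against 3.37%) and ETS letters in 1 (3.23%, against 19.1%). For the genes lower and higher at 1 h the AP-1 shares were 13% (6 of 46) and 8.86% (7 of 79). LPS at least doubled 40 of the 43 genes, and the share among all LPS-induced genes was not counted. A trait of LPS-induced promoters therefore cannot be told apart from one of the 43. These shares are descriptions with no test, and a match is not a bound site.

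Genes of other kinds had lower responses too. *Tnfsf4* (OX40 ligand), which costimulates T cells, was lower by 1.51, with a response 1.40 smaller. *Oaf* was lower by 1.97, with a response 1.24 smaller and a difference of -0.74 without LPS. *Vcam1*, an adhesion molecule, was among the 8 largest differences in response (-1.95, adjusted p = 1.22e-09) without differing at 1 h. Its mean was 9.11 in treated and 8.86 in untreated cells at 1 h, but 7.86 ± 0.55 (SD, n = 4) and 5.66 ± 0.11 (SD, n = 6) without LPS, so the groups were further apart before LPS than after. *Lars2* (-1.92) and *H2-Q8* (-2.75) were lower at 1 h too, and the LPS change of *Lars2* was 0.57 in untreated and -1.52 in treated cells. *H2-Q8* belongs to the class I MHC family, whose genes are much alike. The ribosomal RNA gene *Rn45s* ranged from 14.88 to 19.38 in untreated and from 15.40 to 15.78 in treated libraries at 1 h, and without LPS from 15.19 to 15.78 and from 18.06 to 19.25. Without LPS it was thus 3.28 higher in treated cells, and its own response was lower by 4.78 (adjusted p = 0.00108). Its part in the *Lars2* value and in the other response values, which all rest on the same libraries without LPS, was not tested.

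Immediate early transcription factors, the genes that ERK1/2 signals switch on first, had 1 of 25 lower and 2 higher, with a median of 0.08 that became -0.07 without RSKi47 replicate 1. *Fosl1* (chromosome 19, 5447698 to 5455938), the AP-1 subunit FRA-1, was 4.04, 3.50, 3.48 and 3.85 in treated and 4.57 to 5.78 (median 5.12) in untreated libraries. Its difference was -1.38 (SE 0.15, adjusted p = 4.12e-13) with no overlap, and its response was 1.29 smaller. The 1 h difference was -0.94 with 10 added on the linear scale and -0.98 against untreated replicates 4 to 6 alone, both under 2-fold. *Egr1*, a zinc finger factor, was 12.72, 12.33, 12.46 and 12.12 against 11.19 to 11.62 (median 11.36). All 4 treated libraries lay above the untreated ones, by 1.01 on average (SE 0.16, adjusted p = 9.89e-08). Without LPS and at 0.5 and 2 h the differences in *Egr1* were 0.22, 0.13 and -0.04. The difference fell just under 2-fold in 8 alternatives, to 0.91 without RSKi47 replicate 1. Its response was 0.79 higher (adjusted p = 0.021), under the 2-fold limit. *Nr4a3*, an orphan nuclear receptor, was higher by 1.14, with replicate 1 at 8.13 and the others at 6.18 to 6.49, against untreated libraries of up to 6.25, so the groups overlapped. Without replicate 1 it was higher by 0.70, under the 2-fold limit. It was higher by 0.51 without LPS, and its response did not pass the test (adjusted p = 0.204). *Fosb* has 3 treated values, since the value of replicate 1 lay far outside the range of the table and was set missing, and differed by -0.62 with overlap (adjusted p = 0.000119; exact permutation p = 0.0833). *Jun* and *Klf4* were each higher by 0.51 and *Maff* lower by 0.51, all past the adjusted p and under 2-fold.

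ERK feedback inhibitors, which switch the cascade off, had 1 of 19 lower and none higher (median -0.18). That gene was *Errfi1* (MIG6), an inhibitor of the EGF receptor, at 11.49 to 12.98 against 13.11 to 13.44. It was lower by 1.20 (SE 0.15, adjusted p = 1.79e-10) without overlap, after a difference of -0.06 without LPS. *Dusp2*, a phosphatase of MAP kinases, was lower by 0.90, and *Ier3* by 0.58, with differences of 0.07 and -0.23 without LPS. *Hbegf*, an EGF receptor ligand and CREB target, was lower by 1.19 and by 0.56 without LPS. Among 20 CREB targets, a group that RSKs are known to reach through CREB itself, 2 were lower (*Il10* and *Hbegf*), 1 was higher (*Nr4a3*, not called without RSKi47 replicate 1) and the median was -0.04, which became 0.14 without RSKi47 replicate 4. None of the 24 NF-κB subunit and feedback genes was changed (median -0.23), while 13 were lower and 2 higher by adjusted p alone, where 26.3% of all genes were lower. *Hspa1b*, an inducible HSP70, was the 1 of 11 heat shock genes lower (-1.32, and -0.29 without LPS), and it has near-identical copies.

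**Figure D3:**
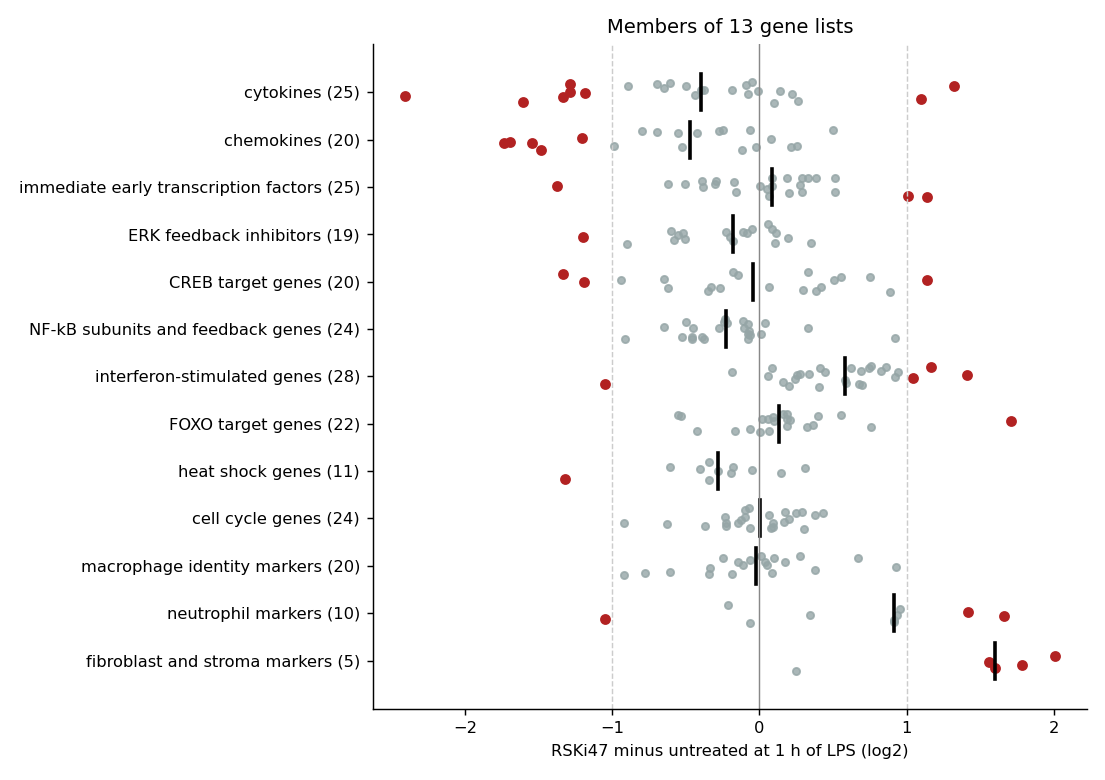
Difference between RSKi47-treated and untreated cells at 1 h of LPS (log2) for each tested member of 13 gene lists, with the number tested in brackets; red points are changed genes, black bars medians and dashed lines 2-fold limits. Cytokines and chemokines reach the lowest values. Stroma markers have the highest median, 1.60, over the 5 of 12 that passed the filter, which high values in treated libraries can satisfy.

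*Fbxo32* (chromosome 15, 58175879 to 58214892), the ubiquitin ligase atrogin-1 and a FOXO target, was the 1 of 22 FOXO targets changed. Its values were 7.32, 6.93, 7.06 and 7.70 against 5.22 to 5.77 (median 5.58), with no overlap. It was higher by 1.71 (SE 0.10, adjusted p = 1.86e-26). LPS lowered it by 1.30 in untreated cells and by 0.25 in treated cells, a difference of 1.05 (adjusted p = 1.13e-07), on top of a difference of 0.66 without LPS. *Arrdc3*, an arrestin-like adaptor of receptors, was lowered by LPS by 2.59 in untreated and by 1.23 in treated cells. At 1 h it differed by 0.34 with overlap of the groups (exact permutation p = 0.133), after a difference of -1.02 without LPS, and the DMSO cells of the PD0325901 experiment also lay 1.22 below untreated cells.

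**Figure D4:**
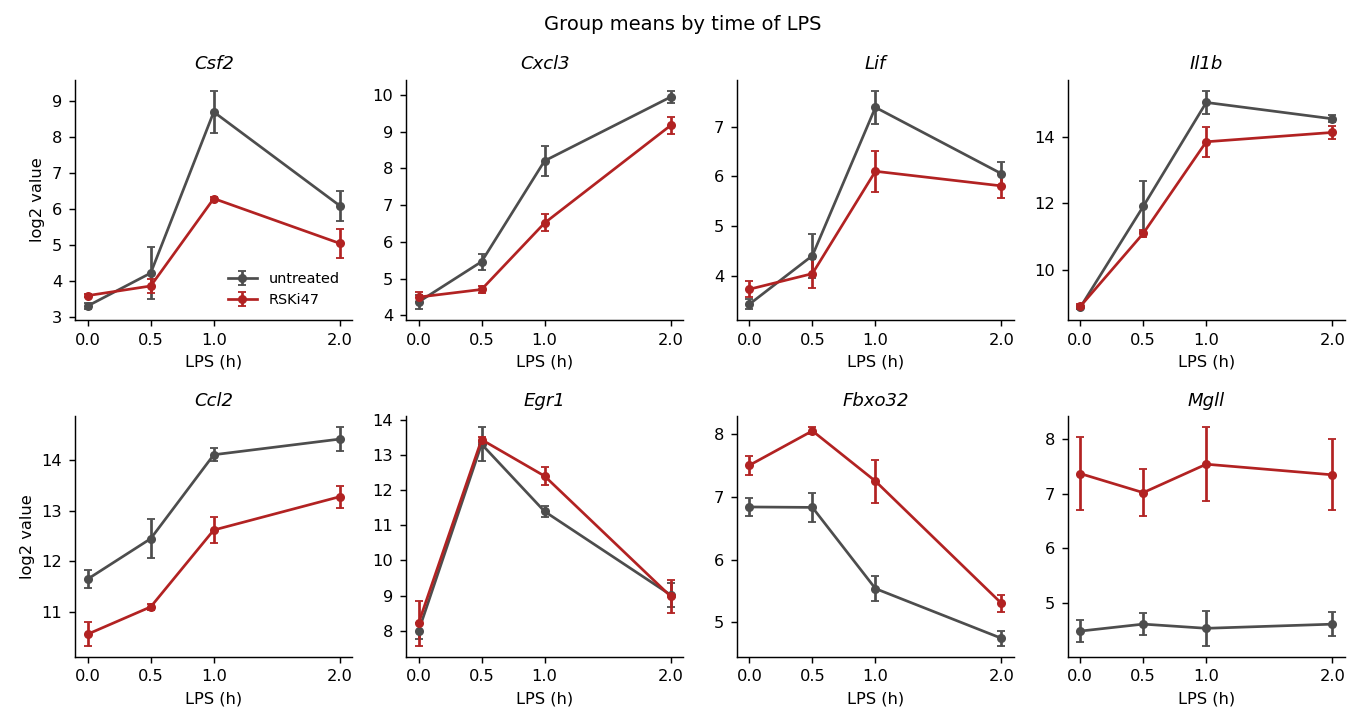
Means of log2 values (error bars, SD) without LPS and at 0.5, 1 and 2 h in untreated (grey, n = 6, 4 at 2 h) and RSKi47-treated (red, n = 4, 3 at 0.5 h) cells. *Csf2*, *Cxcl3*, *Lif* and *Il1b* differ most at 1 h, *Ccl2* and *Mgll* differ at every time, and *Egr1* is apart at 1 h.

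The other times put the 1 h values in context. *Csf2* was lower by 0.36 at 0.5 h and by 1.05 at 2 h, *Cxcl3* by 0.76 and 0.77, and *Lif* by 0.36 and 0.25, so the 1 h difference was the largest of the times measured for each. *Errfi1* was lower by 0.43 and 1.68, with a 2 h difference beyond that at 1 h. *Ccl2* was lower by 1.35 and 1.15. Libraries of the same number may share a culture across times, and the values are set side by side without a test between times.

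Genes higher at 1 h were mostly those higher at every time. *Mgll* (chromosome 6, 88724412 to 88828360), a lipase of the endocannabinoid 2-arachidonoylglycerol, was 7.28, 7.53, 6.89 and 8.48 against 4.09 to 4.97 (median 4.54). It was higher by 3.01 (SE 0.19, adjusted p = 4.76e-25) and by 2.89 without LPS. *Mfge8*, a bridge for the uptake of dying cells, was higher by 2.33 and by 2.28 without LPS, and *Eef1a2*, a translation factor, by 2.41 at both. *Itgal* (LFA-1), *Met* (the HGF receptor), *Cx3cr1* (the fractalkine receptor) and *Slc7a11* (the cystine transporter) were higher by 2.10, 1.88, 1.39 and 1.41, and without LPS by 2.24, 1.74, 1.42 and 1.84. For *Slc7a11* the 1 h difference was 0.90 against untreated replicates 4 to 6 alone and 0.995 with library weights, both under 2-fold. *Slc36a2*, *Dach1*, *Ptgfrn*, *Cspg4*, *Spint1* and *Adamts1* were higher by 2.20, 2.09, 2.06, 1.98, 1.95 and 1.88, and without LPS by 2.40, 2.11, 1.96, 2.05, 1.84 and 1.37. The same held for *Ctsk* (cathepsin K), the 1 of 23 lysosome genes changed, at 1.63 and 1.47, and for *Ctgf*, a matrix-associated growth factor and the 1 of 14 SRF targets changed, at 1.54 (0.88 with 10 added on the linear scale) and 1.61. In each of these 15 genes the response did not pass the test. The pseudogene *Rpl31-ps12* was higher by 1.92 and by 0.93 without LPS. Among the genes lower at both times, *Cd5l*, a scavenger-type protein of tissue macrophages, was lower by 1.68 and 1.79, and *Cbr2*, a carbonyl reductase, by 1.83 and 1.88. The monocyte chemokine receptor *Ccr2* (-1.24) belonged to them, with -0.78 against untreated replicates 4 to 6 alone and -0.92 without RSKi47 replicate 4.

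Some of the largest differences lay in genes with near-identical copies elsewhere in the genome, whose reads a counting program can assign either way. *Hist1h2ap* (4.98), *Ndufs5* (-2.53), *Rpl26* (-2.41) and *Hnrnpa1* (-1.62) have such copies, and *Pira4* (5.67) and *Pira7* (-2.39), members of the paired immunoglobulin-like receptor family, differed in opposite directions. All 6 differed without LPS too, by 5.81, -2.86, -2.34, -1.34, 5.12 and -2.26. *Pira4* varied widely among treated libraries, with an SD of 2.07 at 1 h and 2.6 without LPS. A transcript of another gene, at 97% identity or more over at least 200 bases, was found for 9 of the 112 higher and 9 of the 66 lower genes with a transcript in the annotation (8.04% and 13.6%), against 7.16% of all tested genes. These values are uncertain as measures of the single gene.

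Interferon-stimulated genes had 3 of 28 higher and 1 lower, with a median of 0.58, and 17 were higher by adjusted p alone, where 26.5% of all genes were higher. *Ifit2*, *Ifit3* and *Oas3*, antiviral proteins, were higher by 1.41, 1.04 and 1.16, with overlap of the groups for *Ifit2* and *Ifit3*. *Ifit3* has a near-identical copy, and its difference was under 2-fold without RSKi47 replicate 1, 2 or 3 (0.95, 0.90 and 0.87). Against untreated replicates 7 to 9 alone it was 0.995, also under 2-fold. In RSKi47 replicate 4 the 3 genes were lowest of the treated libraries, for *Ifit3* 10.39 against 11.85 to 12.11 in the others. The list's median was 0.48 without LPS, and its median in the DMSO cells of the PD0325901 experiment was 0.76 above untreated cells, with *Ifit2* 1.45 above. Of the 186 genes, 9 of the higher and 4 of the lower ones were also changed in the same direction in those DMSO cells, in which 46 genes (0.384%) were changed, 34 higher (0.284%) and 12 lower (0.1%). The lower gene of the list was *Cish*, a STAT5 feedback inhibitor (-1.05, response 1.02 smaller). Its 1 h difference fell under 2-fold in several alternatives, to -0.79 against untreated replicates 7 to 9 alone and -0.93 without RSKi47 replicate 3.

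Markers of some other cell types differed between the groups as well. No tested marker of B cells, T and NK cells, mast cells and basophils, or erythroid cells and megakaryocytes was changed (3, 2, 2 and 2 tested). The summed levels of these lists overlapped between the groups. Of 12 fibroblast and stroma markers, 5 were tested and 4 were higher: *Col1a2* by 2.01, *Postn* by 1.79, *Sparc* by 1.60 and *Col1a1* by 1.56. *Postn* lay under the filter's limit in every untreated library at 1 h (1.83 to 1.93), as did the untreated mean of *Col1a1* (2.74). Such members could be tested because of the treated libraries, so the count of 4 among 5 is partly fixed by the filter. With 10 added on the linear scale before the logarithm, which shrinks differences of low genes, *Postn* was at 0.74, *Col1a1* at 0.83 and *Sparc* at 0.97, all under 2-fold. *Col1a1* was 3.07 higher without LPS, with a wide spread among treated libraries (5.55 ± 2.35, SD, n = 4, against 2.48 ± 0.20, SD, n = 6). The summed linear level of the list was 74.9 to 244 in treated and 41.9 to 65.6 in untreated libraries, with *Lum*, *Dcn*, *Thy1* and *Pdgfra* below 0 on the log2 scale in every library. Among 15 neutrophil markers, 10 were tested, *Ngp* and *Ltf* were higher by 1.66 and 1.41, *Mmp9* was lower by 1.05 (by 0.61, adjusted p = 0.107, against untreated replicates 4 to 6 alone), and the summed level was 1273 to 1709 against 714 to 1482. The median of the 10 was 0.92, and by adjusted p alone 7 were higher, with *S100a8*, *S100a9*, *Lcn2* and *Mmp8* at 0.92, 0.91, 0.94 and 0.95, and 1 was lower. By adjusted p alone 26.5% of all genes were higher and 26.3% lower. The summed level rests mostly on *Mmp8*, the highest of the 15, at 9.88 to 10.36 in treated and 8.95 to 9.91 in untreated libraries. The precursor markers *Elane* and *Ctsg* and the defining *Ly6g* were below 0 throughout. *Ngp* and *Ltf* were also higher in the DMSO cells, by 1.41 and 1.56. Of 12 dendritic cell markers, 7 were tested and 1 was higher. That gene, *H2-Ab1*, a class II MHC chain, was higher by 1.18, but by 0.48 (adjusted p = 0.155) against untreated replicates 4 to 6 alone. The integrin *Itgax* (CD11c) and *Ciita*, the class II transactivator, were higher by 0.83 and 0.82, past the adjusted p and under 2-fold. *Batf3* was lower by 0.70 and *Zbtb46* by 0.32. By adjusted p alone 4 of the 7 were higher and 2 lower, where 26.5% and 26.3% of all genes were. The summed level of the list was 6903 to 8187 in treated and 2385 to 5837 in untreated libraries, without overlap, where 32.6% of all genes did not overlap. This sum rests mostly on *Itgax* (12.03 to 12.44 against 10.65 to 11.95) and *H2-Ab1* (10.78 to 11.51 against 9.20 to 11.15). *Flt3*, at 1.26 to 1.44 against 1.15 to 1.39, was low in every library and overlapped. In bulk RNA, more cells of a type and more RNA per cell cannot be told apart, and the part of these markers in the other differences was not tested.

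The genes of the RSKs themselves did not pass the test. *Rps6ka1* was 11.21 ± 0.03 (SD, n = 4) in treated and 11.16 ± 0.04 (SD, n = 6) in untreated cells, and the differences for *Rps6ka2* and *Rps6ka3* were 0.05 and -0.15 (adjusted p = 0.253, 0.609 and 0.0713). An inhibitor of kinase activity need not alter these mRNAs, so they do not check the treatment, and *Rps6ka6* was too low to test.

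RSKi47 was then set against PD0325901, which inhibits MKK1/2 and so blocks ERK1/2 and everything beyond it, RSKs included. PD0325901 had been given at 0.1 µM for 10 min before 1 h of LPS, in 6 libraries of its own experiment, and the experiments cannot be told apart from the inhibitors. The groups differed in 177 genes (1.48%), of which RSKi47-treated cells had 60 lower (0.501%) and 117 higher (0.977%). *Egr1* differed most among immediate early genes: it was 7.01 to 7.36 in PD0325901-treated libraries, 12.12 to 12.72 in RSKi47-treated and 11.19 to 11.62 in untreated ones. RSKi47-treated cells were 5.23 higher than PD0325901-treated ones (95% CI 4.91 to 5.55, adjusted p = 8.47e-50). *Fosb* was higher by 1.20. *Egr3* and *Nr4a1*, named here after their values were seen, were higher by 2.12 and 2.18, and neither passed the test between RSKi47-treated and untreated cells. *Nr4a1* was 12.92 in RSKi47 replicate 1 and 10.10 to 10.68 in the others.

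For the genes lower with RSKi47, the 2 inhibitors were compared gene by gene. *Csf2* was at 6.42 to 6.47 with PD0325901 and 6.23 to 6.35 with RSKi47, a difference of -0.17 (95% CI -0.52 to 0.19, adjusted p = 0.449). *Il23a* (0.12, CI -0.24 to 0.49), *Il1b* (-0.16, CI -0.46 to 0.15), *Fosl1* (0.16, CI -0.13 to 0.46) and *Errfi1* (0.18, CI -0.13 to 0.49) did not pass either. *Cxcl3* was lower with RSKi47 by 0.69 and *Lif* higher by 0.56. By contrast, *Ccl2*, *Ccl7*, *Ccl12* and *Il12b* were lower with RSKi47 than with PD0325901 by 1.57, 1.49, 1.38 and 1.44. *Ccl2* was at 14.11 to 14.28 with PD0325901, near the untreated 13.87 to 14.21. *Ifnb1* was lower with RSKi47 by 2.30 (CI -2.85 to -1.75), with PD0325901-treated libraries at 10.82 to 12.80. *Fbxo32* was higher with RSKi47 by 1.89.

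**Figure D5:**
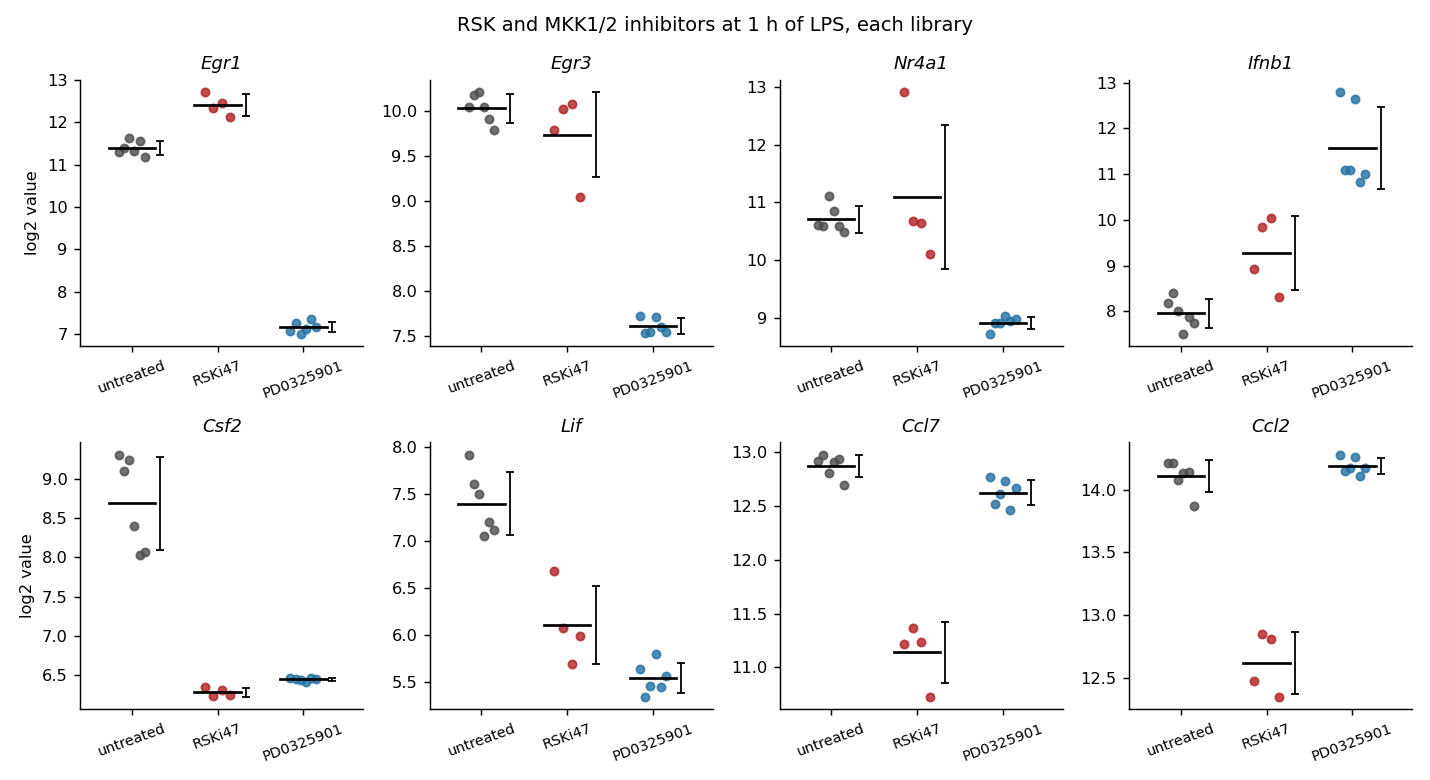
Log2 values at 1 h of LPS in each untreated (n = 6), RSKi47-treated (n = 4) and PD0325901-treated (n = 6) library; lines are means and error bars the SD. *Egr1*, *Egr3* and *Nr4a1* are lowest with PD0325901, *Csf2* and *Lif* are below untreated cells with both inhibitors, and *Ccl7* and *Ccl2* are lowest with RSKi47.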

How the data were processed

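The submitters' processing notes name mm10, STAR (2.5.1b), RSEM (1.2.29) and DESeq2 (1.10.1). The study's methods give later versions of STAR and RSEM, and which ones made the values is unknown. The authors deposited normalized log2 values. The sources used here do not name the transformation, so a count test could not be run. A value above 25 (*Fosb*, RSKi47 replicate 1) was set missing.

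Genes reaching a linear value of 10 in at least 3 libraries were tested with limma (3.58.1, R 4.3.3), with a mean per group over all libraries and Benjamini-Hochberg adjustment over 11971 genes. For the response, the replicate number was a block in an alternative only. Scripts were tested on simulated data. Near-identical copies came from minimap2 and GENCODE M21.

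Named genes were the 15 largest differences each way without overlap, the 8 largest differences in response each way (predicted, RIKEN, micro, nucleolar and ribosomal RNA genes left out), the RSK genes, and the changed members of each list, with some other members of the lists described; 2 genes that these rules named are not reported here. Members and lists were chosen with earlier results of these data known; motifs were chosen during the analysis. Alternatives were other scalings, filters, thresholds and library weights, and leaving out libraries.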

Additional observations from a re-analysis of the deposited data

Results flagged for a closer look

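In 12 of the 132 groups of values examined for the named genes, 1 library lay far from the rest of its group, by its gap to the nearest library relative to the group's range. Chance gives such a gap in about 1 of 20 groups. RSKi47 replicate 4 was that library in 6 of the 12. It was lowest for *Ccr2* (8.997, mean of the others 10.29), *Ifit3* (10.39, others 11.99), *Oas3* (11.97, others 12.85) and *Rps6ka3* (11.98, others 12.20), and highest for *Il23a* (6.88, others 6.27) and *Slc7a11* (10.08, others 8.88). RSKi47 replicate 1 was highest for *Nr4a3* (8.125, others 6.37) and *Pira7* (6.36, others 5.62), replicate 2 for *Ndufs5* (6.66, others 6.06) and replicate 3 for *H2-Q8* (6.11, others 4.55). Untreated replicate 7 was highest for *Cd5l* (14.14, others 13.63) and replicate 8 for *Ifit3* (11.03, others 10.45).

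The LPS response differed between RSKi47-treated and untreated cells, by the test of that difference, for the named genes *Csf2* (-2.69), *Vcam1* (-1.95), *Il23a* (-1.90), *Cxcl3* (-1.82), *H2-Q8* (-1.77, a call lost in 4 alternatives) and *Ccl22* (-1.68), which LPS raised in untreated cells and raised less or not at all with the inhibitor. It also differed for *Lars2* (-2.09), which changed with LPS by 0.57 in untreated and by -1.52 in treated cells, and for *Arrdc3* (1.36) and *Fbxo32* (1.05), which LPS lowered less with the inhibitor.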

How the results depend on the processing

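The counts of changed genes depended most on the threshold. With a limit of the natural logarithm of 2, with a 1.5-fold limit and by adjusted p alone, they were 174, 271 and 3143 lower and 296, 400 and 3174 higher at 1 h, 80, 109 and 392 lower and 8, 17 and 270 higher for the response, and 136, 216 and 3025 lower and 337, 510 and 3422 higher against PD0325901. Lower responses numbered 71 against untreated replicates 4 to 6 alone and 22 against replicates 7 to 9 alone. Higher responses numbered 7 against replicates 4 to 6, 8 with library weights, and 1 with quantile normalization or with 10 added on the linear scale. Leaving out 1 library gave 60 to 81 lower and 114 to 136 higher genes at 1 h, 31 to 49 and 1 to 3 for the response, and 48 to 66 and 110 to 137 against PD0325901. Libraries of the same number without LPS and at 1 h deviated together (0.265 to 0.714), but so did some untreated libraries of other numbers of the same set: replicates 4 and 5 without LPS correlated more with 5 (0.571) and 6 (0.537) at 1 h than with their own numbers (0.371 and 0.392). With the number as a replicate block 44 responses were lower and 3 higher. No paired analysis was possible of the 1 h comparison because the groups share 1 number.

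Over 75 results for named genes, 1548 values kept direction and side of an adjusted p of 0.05 (or of the exact p), 16 were no longer past it, 3 came to pass it and 2 reversed, both for *Rps6ka2*, which did not pass: -0.028 with library weights and -0.10 against untreated replicates 4 to 6. The response of *H2-Q8* was lost in 4 alternatives: without RSKi47 replicate 1 (-1.37, adjusted p = 0.139) or 4 (-1.57, adjusted p = 0.0658), against untreated replicates 7 to 9 alone (-1.86, adjusted p = 0.0722), and with the compared libraries alone (-1.77, adjusted p = 0.139). With the 2-fold limit included, 47 of the 70 called results stayed called in every alternative, and 64 of 1464 values were no longer called, 53 of them by the 2-fold limit alone. At 1 h the calls of *Ccl22*, *Cish*, *Il12b*, *Il1b*, *Il23a* and *Ifit3* ended against untreated replicates 7 to 9 alone, those of *Ccr2*, *Clcf1*, *Egr1*, *Fosl1*, *H2-Ab1*, *Hbegf*, *Mmp9*, *Nr4a3* and *Slc7a11* against replicates 4 to 6 alone, and those of *Ccr2*, *Clcf1*, *Errfi1*, *Il10* and *Mmp9* without RSKi47 replicate 4. The causes were not tested. Of 34 list medians, 11 changed sign in some setting, among them those of immediate early, CREB target and cell cycle genes. Depth is unknown, and the 4 treated libraries limit precision.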
